A study of Mus musculus with 12 samples.

Results

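A set of 10 of the 55418 genes counted in the brainstem of neonatal mice is described here: 9 regulators of G protein signaling (RGS), *Rgs2*, *Rgs4*, *Rgs6*, *Rgs7*, *Rgs8*, *Rgs9*, *Rgs10*, *Rgs11*, and *Rgs17*, and *Gnb5*, which encodes the Gβ5 subunit. They were taken by gene symbol, from a list chosen with earlier results of these data known. All 10 passed the filter on low counts, which kept 18608 genes in the sex-combined dataset. Opioid receptors signal through inhibitory G proteins, whose α subunit is active while it holds GTP. RGS proteins speed the hydrolysis of that GTP and so end the signal. Members of the R7 subfamily (*Rgs6*, *Rgs7*, *Rgs9*, *Rgs11*) are stable only as dimers with Gβ5, and several RGS proteins are known to limit the response of the μ opioid receptor and to take part in tolerance.

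RNA was sequenced from 12 outbred CFW mice (Swiss Webster stock) on P15, in 4 groups of 3: saline females, saline males, morphine-exposed females, and morphine-exposed males. From P1 to P14 the pups received 15 mg/kg morphine or saline s.c. 2 times daily, with both treatments given within litters, and tissue was taken 16 h after the last injection, in spontaneous withdrawal. Saline control mice thus shared the handling and the injections. Each mouse gave 1 library. The comparisons address how neonatal morphine changes brainstem transcripts and whether the change depends on sex.

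Between 27850565 and 48097947 counts fell on genes in a library. Hindbrain markers were present, such as *Slc6a5*, the glycine transporter of inhibitory neurons, at 468 to 636 CPM (counts scaled to a common library size). *Hoxb4*, of the same list, was at 6.32 to 11.7 CPM. Of 7 spinal cord Hox genes 6 had at most 3 counts in any library, and the remaining gene had at most 16. One library went against its label: the library labelled morphine male 6 had 380 CPM of *Xist*, the RNA that silences the X chromosome in females, against 0.399 to 2.65 CPM in the other 5 males and 550 to 979 CPM in females. Its summed level of 4 Y-linked genes was 17.6% of the mean of the other males. The 3 saline males stood apart from each other in how their gene levels moved with the GC content of transcripts, as described below, with saline male 3 at one end and saline males 1 and 2 at the other. In males 543 genes passed the DE call defined below, and 5341 without saline male 3, 462 without morphine male 6, and 7548 without both. Calls in males are therefore given with and without these libraries. Without both, the r of gene deviations with GC content was 0.58 and 0.68 in the remaining saline males. It was -0.02 and -0.24 in the remaining morphine-exposed males, so treatment and this GC difference cannot be told apart in males of that fit. A gene was called DE where edgeR's quasi-likelihood test gave an unadjusted p below 0.05 together with a log2 fold change (Log2FC) beyond 0.26 in either direction, and Benjamini-Hochberg adjusted p values over all tested genes stand beside it.

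The 10 genes were expressed at very different levels. To compare genes, CPM were divided by the length of the annotated exons (RPKM). In saline mice (n = 6) *Rgs4*, which acts on Gi/o and Gq subunits and is known as one of the most abundant brain RGS genes, was the highest at 72.5 ± 11.3 RPKM (mean ± SD). *Rgs17* followed at 31.1 ± 5.98 RPKM, then *Rgs10* at 24.7 ± 2.69 RPKM, *Gnb5* at 22.6 ± 2.30 RPKM, and *Rgs2* at 16.3 ± 2.95 RPKM. *Rgs8* had 10.5 ± 0.487 RPKM, *Rgs7* 9.11 ± 1.35 RPKM, and *Rgs6* 8.10 ± 0.997 RPKM. The lowest were *Rgs11* at 3.38 ± 1.17 RPKM and *Rgs9* at 2.21 ± 0.553 RPKM. By mean CPM, which is not divided by length, *Rgs9*, known for its retinal and striatal forms, was above 52.5% of tested genes. *Rgs4* was above 95.7% of them by the same measure. Over the 12 libraries the ranges of neighbors in this order did not overlap at 3 steps, from *Rgs4* to *Rgs17*, from *Rgs2* to *Rgs8*, and from *Rgs6* to *Rgs11*. The ranges of *Rgs17*, *Rgs10*, and *Gnb5* overlapped, as did those of *Gnb5* and *Rgs2*, of *Rgs8*, *Rgs7*, and *Rgs6*, and of *Rgs11* and *Rgs9*. When the length of the longest transcript was used instead, *Rgs10* (48.1 RPKM) and *Gnb5* (33.4 RPKM) moved above *Rgs17* (31.5 RPKM), and *Rgs7* (14.9 RPKM) and *Rgs6* (14.5 RPKM) moved above *Rgs8* (12.0 RPKM).

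**Figure D1:**
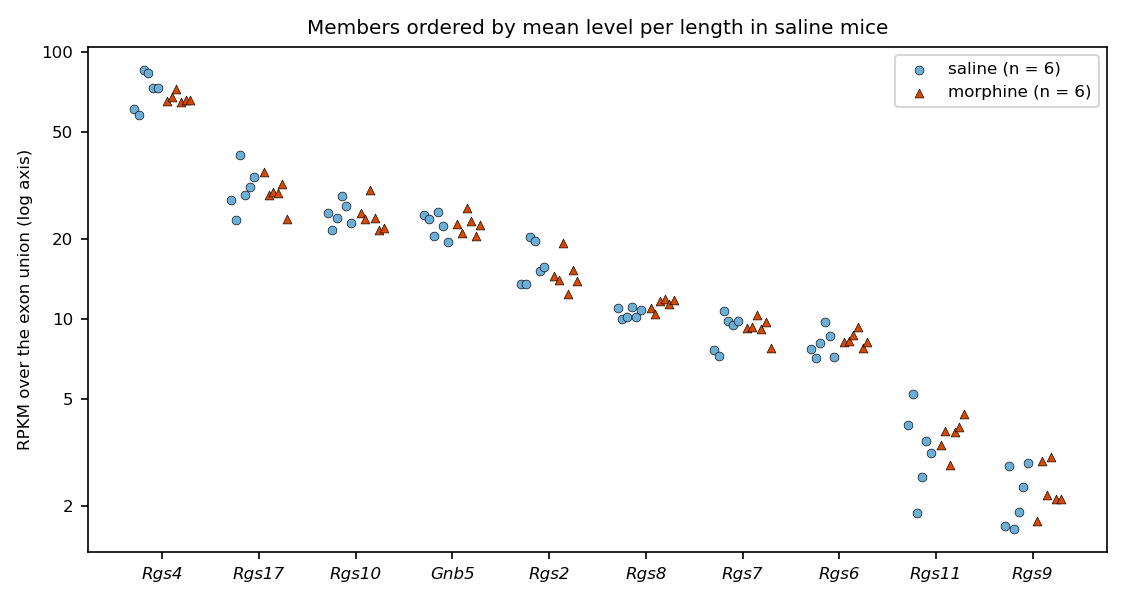
Level per length of the 10 genes in each of 12 mice, as RPKM over the annotated exons on a log axis, with genes ordered by their mean in saline mice (circles, n = 6; triangles, morphine-exposed mice, n = 6). *Rgs4* sits alone at the top with a saline mean of 72.5 RPKM, *Rgs11* and *Rgs9* sit at the bottom, and saline and morphine-exposed mice overlap for every gene.

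No member was a DE gene in the sex-combined dataset. Of the 10 genes, 6 had a higher and 4 a lower fitted level in morphine-exposed mice, with a median Log2FC of 0.02 beside -0.02 over all genes, and no adjusted p was below 1.00. Over all 18608 genes 1.19% were called DE. The number of members called was 0 in the females-only and in the males-only dataset too, against 1.81% and 2.99% of all genes. No member had an unadjusted p under 0.05 in these 3 comparisons, nor was one called by DESeq2. In the sex-combined, females-only, and males-only datasets the quasi-likelihood test of edgeR gave no gene with an adjusted p under 0.05, while 246, 343, and 543 genes had an unadjusted p under 0.05. At the adjusted threshold edgeR's exactTest gave 0, 3, and 1 genes, DESeq2 gave 0, 3, and 0 genes, and the quasi-likelihood test on unfiltered genes gave 0, 77, and 0 genes. In males total-count scaling moved the median Log2FC of all genes from -0.06 to 0.06, so that small differences in males depend on the scaling. The 95% intervals of Log2FC show what these data could have missed. For *Rgs8*, *Gnb5*, *Rgs10*, *Rgs6*, and *Rgs7* the sex-combined interval lay within the DE threshold of 0.26 on both sides. *Rgs11* (-0.30 to 0.54) and *Rgs9* (-0.30 to 0.50) could have changed by more in either direction. *Rgs2* (-0.41 to 0.14), *Rgs17* (-0.33 to 0.22), and *Rgs4* (-0.31 to 0.10) could have fallen by more than the threshold.

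**Figure D2:**
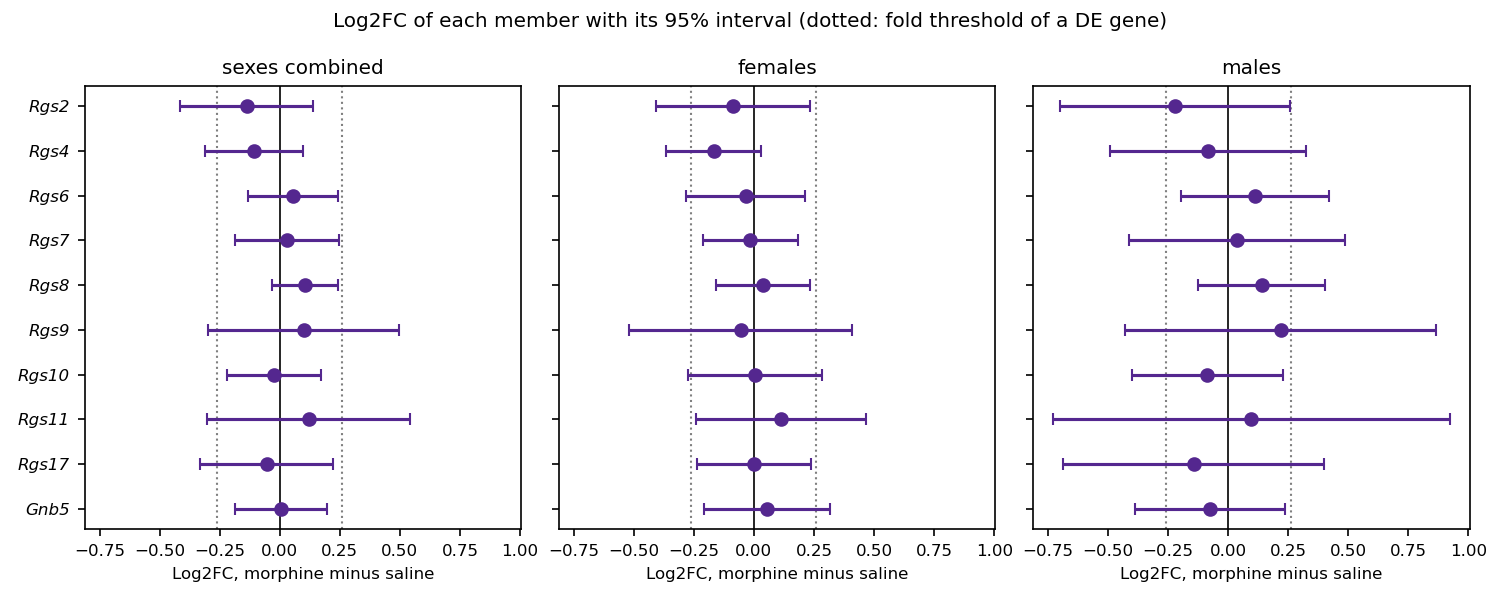
Log2FC of morphine-exposed against saline mice for each gene (points) with its 95% interval (bars) from edgeR, for both sexes combined (6 against 6), females (3 against 3), and males (3 against 3). Dotted lines mark the fold threshold of a DE gene, and every interval crosses 0, with the widest interval for *Rgs11* in males (-0.73 to 0.92).

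Of the R4 subfamily, whose small proteins consist of little more than the RGS domain, *Rgs4* was the most abundant member. Its gene (ENSMUSG00000038530) lies on the minus strand of mouse chromosome 1 at 169741477 to 169747642 (GRCm38). In saline females it was at 259, 226, and 228 CPM, and in morphine-exposed females at 204, 209, and 225 CPM. The female groups did not overlap in CPM, with all 3 morphine-exposed females below all 3 saline females. The nearest values were 224.5 CPM (morphine female 3) and 226.3 CPM (saline female 5). The Log2FC was -0.17 (SE 0.09), with a 95% interval of -0.37 to 0.03 and an unadjusted p of 0.0873 (adjusted p = 1.00). In females 5.67% of all tested genes had groups that did not overlap, and 1 of 10 members did. After the offsets for GC content and length described below, the female groups of *Rgs4* overlapped. Its log2 deviation from the mean was then 0.027 in morphine female 3, -0.006 in saline female 5, and -0.028 in saline female 6. In saline males *Rgs4* was at 189, 180, and 265 CPM, and in morphine-exposed males at 201, 204, and 205 CPM. Morphine-exposed males lay close together, inside the wide range that saline male 3 gave the saline males. The male Log2FC was -0.08 (SE 0.17), and without saline male 3 and morphine male 6 it was 0.12 (SE 0.09). The summed level of 8 neuronal markers ranged from 7962 to 9058 CPM in saline females and from 7462 to 9153 CPM in morphine-exposed females. None of them was a DE gene in females, and their part in the *Rgs4* values was not tested. In tissue RNA, fewer cells of a type and less RNA per cell cannot be told apart.

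*Rgs2* (ENSMUSG00000026360; chromosome 1, 143999338 to 144004161, minus strand) encodes a small RGS protein that prefers Gq. Saline females had 70.9, 54.9, and 57.0 CPM, and morphine-exposed females 52.3, 50.8, and 69.8 CPM. Saline males had 49.2, 49.1, and 73.7 CPM, and morphine-exposed males 44.8, 55.3, and 50.3 CPM. The groups overlapped in both sexes, and in each of 3 groups a single mouse stood near 70 CPM or above while the others stayed between 49.1 and 57.0 CPM. The sex-combined Log2FC was -0.14 (SE 0.13), the lowest of the 10 genes, with a 95% interval of -0.41 to 0.14. In males it was -0.22 (SE 0.20), and without saline male 3 and morphine male 6 it was 0.01 (SE 0.105).

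*Rgs8* (ENSMUSG00000042671; chromosome 1, 153653025 to 153700323, plus strand) acts on Gi/o subunits and is known from cerebellar Purkinje cells. It varied least between mice, with an SD within groups of 0.07 on the log2 scale beside a median of 0.28 over all tested genes. Saline females had 107, 97.9, and 104 CPM, and morphine-exposed females 106, 100, and 112 CPM. Saline males had 106, 96.0, and 98.2 CPM, and morphine-exposed males 114, 110, and 113 CPM. In males the groups did not overlap in CPM, with the morphine-exposed males higher. Male groups that did not overlap, in either direction, were found for 8.86% of all tested genes and for 1 of 10 members. The male Log2FC was 0.14 (SE 0.11; 95% interval -0.12 to 0.40; unadjusted p of 0.249), and the sex-combined Log2FC was 0.11 (SE 0.06; unadjusted p of 0.119). Without saline male 3 and morphine male 6 the male value was 0.13 (SE 0.09). After the offsets for GC content and length, saline male 3 and morphine male 5 were both at a log2 deviation of 0.028. The male groups thus met at that value. Of 8 granule cell markers of the cerebellum, 6 had a higher and 2 a lower fitted level in morphine-exposed males. The 8 Purkinje cell markers also split into 6 higher and 2 lower. Of the granule cell markers 3 were DE genes and higher in morphine-exposed males: *Gabra6* (Log2FC 1.35, SE 0.46), *Cbln3* (1.08, SE 0.42), and *Fat2* (0.81, SE 0.17). They were called also without saline male 3 and morphine male 6 (1.76, 1.47, and 0.87), where 41% of all genes were called. The sum of the 8 granule cell markers ranged from 151 to 218 CPM in saline males. In morphine-exposed males it ranged from 174 to 266 CPM, which overlapped. The 8 Purkinje cell markers summed to 296 to 310 CPM in saline males and 288 to 383 CPM in morphine-exposed males, and none was a DE gene there. With saline male 3 and morphine male 6 left out, 6 of 8 were called, 5 higher and 1 lower, beside 41% of all genes. *Pcp2*, which is specific to these cells in the brain, was at 0.0581 to 1.22 CPM over the 12 mice. The part of cerebellar tissue in the *Rgs8* values was not tested. Over all 12 mice no member had morphine-exposed mice that were all above or all below the saline mice, beside 0.0376% of tested genes.

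**Figure D3:**
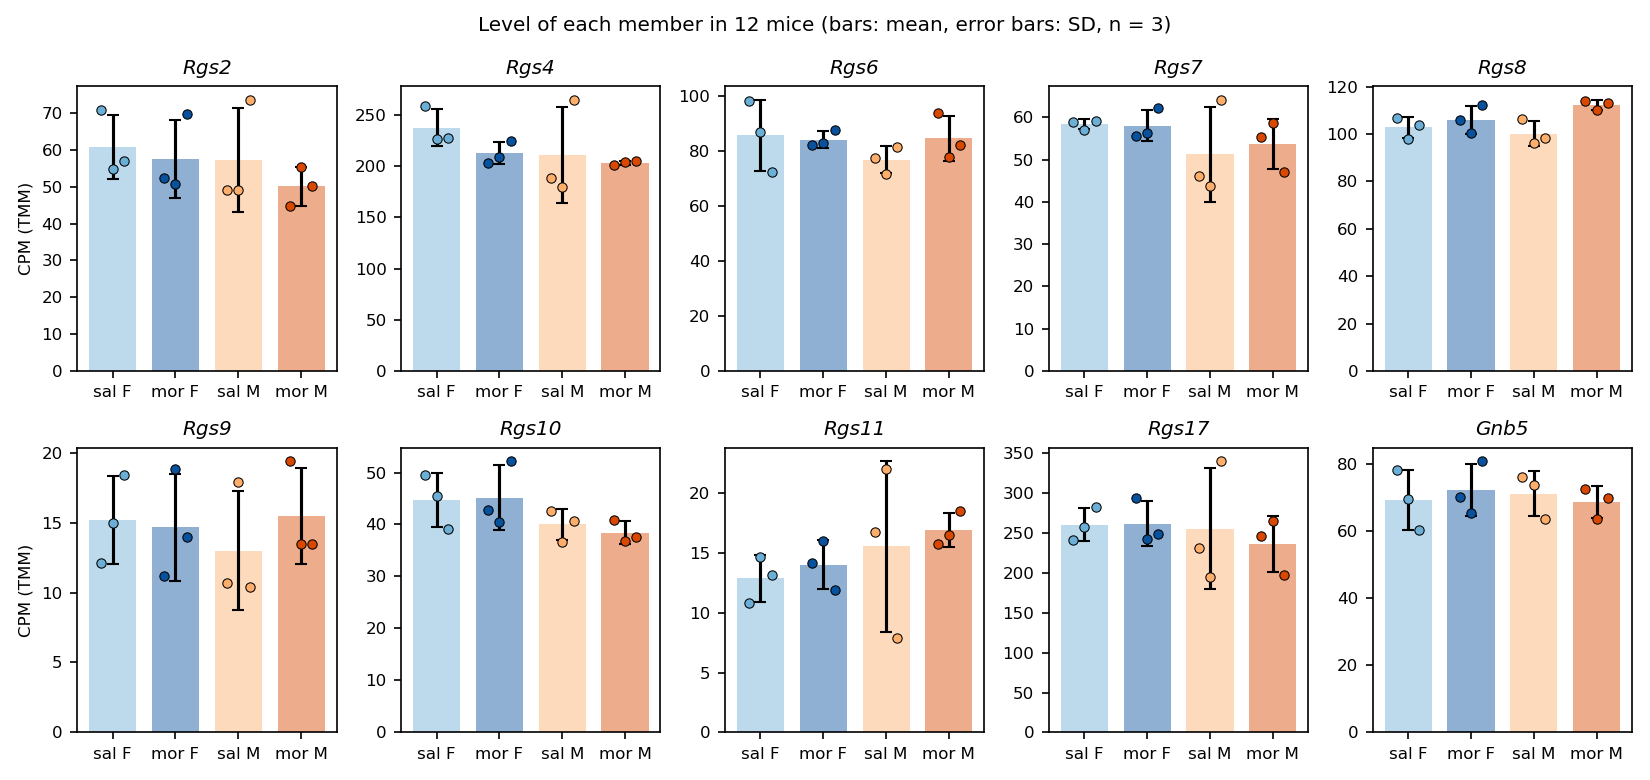
Level of each member in CPM (axes from 0) in saline (sal) and morphine-exposed (mor) females (F) and males (M), with points for single mice, bars for the mean, and error bars for the SD (n = 3). The groups of a sex overlap except for *Rgs4* in females (204 to 225 CPM after morphine, 226 to 259 CPM after saline) and *Rgs8* in males (110 to 114 CPM after morphine, 96.0 to 106 CPM after saline).

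The R7 subfamily and *Gnb5* form 1 functional unit and were described together. *Rgs7* (ENSMUSG00000026527; chromosome 1, 175059087 to 175492500, minus strand) is a broadly neuronal R7 gene. Saline females had 58.9, 57.0, and 59.2 CPM, and morphine-exposed females 55.6, 56.2, and 62.3 CPM. Saline males had 46.0, 43.7, and 64.2 CPM, and morphine-exposed males 55.4, 58.6, and 47.0 CPM. The groups overlapped in both sexes, with saline male 3 the highest of all mice and saline males 1 and 2 the lowest. The Log2FC was 0.04 (SE 0.19) in males and -0.02 (SE 0.09) in females. Without saline male 3 *Rgs7* was called in males, with a Log2FC of 0.26 (SE 0.11; adjusted p = 0.154), and without saline male 3 and morphine male 6 with 0.33 (SE 0.09; adjusted p = 0.0126). It was the 1 member of 10 called there, beside 28.6% of all genes without saline male 3 and 41% of all genes without both libraries, so the share among the members was not above that background.

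*Rgs6* (ENSMUSG00000021219; chromosome 12, 82588292 to 83162056, plus strand), an R7 gene also known from heart muscle, ranged from 71.6 to 98.0 CPM in saline mice with a median of 79.3 CPM, and from 77.8 to 93.6 CPM in morphine-exposed mice with a median of 82.3 CPM. The sex-combined Log2FC was 0.06 (SE 0.09), and the male Log2FC was 0.11 (SE 0.13), or 0.19 (SE 0.11) without saline male 3 and morphine male 6. Under total-count CPM the male groups of *Rgs6* and *Rgs8*, 2 of 10 members, did not overlap, beside 11.3% of all tested genes, while under the other scalings those of *Rgs6* did overlap. *Rgs9* (ENSMUSG00000020599; chromosome 11, 109225355 to 109298129, minus strand) ranged from 10.4 to 18.4 CPM in saline mice (median 13.6 CPM) and from 11.2 to 19.4 CPM in morphine-exposed mice (median 13.8 CPM). Its coefficient of variation was 25.0% in saline mice, while counting error alone gives at most 5.42% at its lowest count of 340. The Log2FC of *Rgs9* was 0.22 (SE 0.27) in males and -0.06 (SE 0.21) in females. Without saline male 3 and morphine male 6 the male value was 0.18 (SE 0.21), and leaving out 1 male at a time it ran from 0.03 without morphine male 4 to 0.52 without saline male 2. *Rgs11* (ENSMUSG00000024186; chromosome 17, 26202951 to 26211324, plus strand), known from retinal bipolar cells, was at 10.8, 14.7, and 13.2 CPM in saline females and at 14.2, 16, and 11.9 CPM in morphine-exposed females. In saline males it was at 16.8, 22.0, and 7.9 CPM, and in morphine-exposed males at 15.8, 16.5, and 18.5 CPM. Saline male 2 was the highest and saline male 3 the lowest of all 12 mice, opposite to *Rgs7*. The male Log2FC of *Rgs11* was 0.10 (SE 0.35). With offsets for GC content and length it was 0.32 (SE 0.13; adjusted p = 0.574), which made *Rgs11* the 1 member of 10 called in that fit, where 6.32% of all genes were called, and without saline male 3 and morphine male 6 it was -0.28 (SE 0.14).

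*Gnb5* (ENSMUSG00000032192; chromosome 9, 75306288 to 75345876, plus strand) differed little in its mean between groups. Saline females had 78.3, 69.6, and 60.3 CPM, and morphine-exposed females 70.4, 65.6, and 81.0 CPM. Saline males had 76.1, 74.0, and 63.6 CPM, and morphine-exposed males 72.8, 63.6, and 70.1 CPM. The 4 groups overlapped, with means between 68.8 and 72.3 CPM, and the sex-combined Log2FC was 0.005 (SE 0.09; 95% interval -0.19 to 0.20). Antisense exons of another gene overlap 8.0% of the *Gnb5* exons, and the strand setting of the counting is not given in the sources used here, so reads there cannot be assigned to one of the strands.

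Per length, *Rgs7* and *Rgs6* made up most of the R7 transcripts. The share of *Rgs7* in the R7 sum ranged from 32.4% in saline male 2 to 47.9% in saline male 3 (median 40.1%), and the share of *Rgs6* from 31.3% to 40.7% (median 36.2%). *Rgs11* contributed between 8.39% in saline male 3 and 23.3% in saline male 2 (median 14.9%), and *Rgs9* between 7.33% and 12.5% (median 9.26%). The ratio of *Gnb5* to the summed R7 genes was near 1: it was 0.993 ± 0.117 in saline mice and 0.956 ± 0.0855 in morphine-exposed mice (mean ± SD, n = 6), with ranges of 0.840 to 1.16 and 0.866 to 1.08 that overlapped. With the longest transcript as the length, the ratio was 0.864 ± 0.103 and 0.832 ± 0.0742. *Rgs7bp*, which anchors R7 dimers at the membrane, ranged from 175 to 270 CPM, with a sex-combined Log2FC of -0.02 (SE 0.11), and none of the 3 tested genes of the 4 R7 binding partners was a DE gene in the treatment comparisons. *Rgs7bp* (0.32, SE 0.09) and *Gpr158* (0.35, SE 0.10) were called and higher in morphine-exposed males once saline male 3 and morphine male 6 were left out. In that fit 41% of all genes were called.

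The 2 members outside these subfamilies were *Rgs17* (RZ) and *Rgs10* (R12). *Rgs17* (ENSMUSG00000019775; chromosome 10, 5825663 to 5922400, minus strand) encodes a regulator of Gz and Gi/o that binds to the μ opioid receptor complex. Saline females had 241, 258, and 282 CPM, and morphine-exposed females 294, 242, and 248 CPM. Saline males had 232, 195, and 340 CPM, and morphine-exposed males 246, 265, and 197 CPM. The groups overlapped, and saline male 3 was again the highest of 12 and saline male 2 the lowest. The Log2FC was -0.0005 (SE 0.11) in females and -0.14 (SE 0.23) in males, and without saline male 3 and morphine male 6 the male value was 0.24 (SE 0.10; adjusted p = 0.0712). *Rgs10* (ENSMUSG00000030844; chromosome 7, 128373621 to 128418758, minus strand) is known for its high level in microglia. It was at 49.5, 45.5, and 39.1 CPM in saline females, at 42.7, 40.4, and 52.2 CPM in morphine-exposed females, at 42.6, 36.7, and 40.7 CPM in saline males, and at 40.9, 36.8, and 37.5 CPM in morphine-exposed males. Treatment groups overlapped in both sexes, with a sex-combined Log2FC of -0.02 (SE 0.09).

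No difference of the morphine effect between the sexes was detected for a member. In the interaction of treatment and sex (change in males minus change in females) 0 of 10 members were called, beside 2.94% of all genes. The largest value was that of *Rgs9*, 0.29 (SE 0.37; 95% interval -0.52 to 1.10), which leaving out 1 mouse moved to between 0.09 (without morphine male 4) and 0.59 (without saline male 2), and the interval of *Rgs11* ran from -0.88 to 0.88. *Rgs4*, whose CPM separated in females before offsets, had an interaction of 0.10 (SE 0.19; unadjusted p of 0.604). For *Rgs8*, whose CPM separated in males before offsets, it was 0.12 (SE 0.13; unadjusted p of 0.375). Thus neither pattern was shown to belong to one sex. Without saline male 3 the interaction of *Rgs4* was 0.28 (SE 0.12; adjusted p = 0.170) and passed the DE thresholds, as the 1 member of 10, beside 24.1% of all genes, and without saline male 3 and morphine male 6 it was *Rgs7* alone that passed (0.32, SE 0.12; adjusted p = 0.103), beside 30.7% of all genes.

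No member was called between males and females. With treatments combined, 8 of 10 members had a lower fitted level in males, and 0 of 10 were called beside 3.94% of all genes. *Rgs10* came nearest, at 39.2 ± 2.49 CPM in males and 44.9 ± 5.16 CPM in females (mean ± SD, n = 6), with a Log2FC of -0.20 (SE 0.09; 95% interval -0.39 to -0.0002) and an unadjusted p of 0.0498 (adjusted p = 0.734). This was under the fold threshold, and the ranges of the sexes, 36.7 to 42.6 CPM and 39.1 to 52.2 CPM, overlapped. Without saline male 3 and morphine male 6 it was -0.17 (SE 0.10; adjusted p = 0.317). The 7 microglial markers had a median Log2FC of -0.17 in the same comparison with 4 lower and 3 higher in males and none called, and their part in the *Rgs10* values was not tested. *Rgs11* had the largest sex difference in size, 0.27 (SE 0.20; adjusted p = 0.734). It was called without saline male 3 (0.44, SE 0.13; adjusted p = 0.0589), as the 1 member of 10 beside 20.9% of all genes, and without saline male 3 and morphine male 6 (0.42, SE 0.14; adjusted p = 0.147), as the 1 member of 10 beside 16.9% of all genes. With the GC and length offsets it was 0.01 (SE 0.12), and without saline male 2 it was 0.12 (SE 0.18).

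The spread of several members between libraries moved with the GC content of their transcripts. For each library, the deviation of each gene from its mean over the 12 libraries was correlated across 18608 genes with the GC content of the transcript. This r, a description of a library in which genes are not independent replicates, was 0.68 in saline male 2, 0.58 in saline male 1, and 0.48 in morphine male 6, and -0.67 in saline male 3 and -0.51 in saline female 6. It lay between -0.32 and 0.10 in the other 7 libraries. The median GC content over tested genes was 49.1%, and the 4 members with the least GC were higher in saline male 3 than in saline males 1 and 2. *Rgs17*, at 36.9% GC, was 1.59 times as high in saline male 3 as in the mean of saline males 1 and 2, *Rgs2* (43.6% GC) 1.50 times, *Rgs4* (44.0% GC) 1.44 times, and *Rgs7* (36.7% GC) 1.43 times. The most GC-rich member, *Rgs11* (56.2% GC), had a ratio of 0.405 in the same libraries, and *Gnb5* (51.4% GC) of 0.848. *Rgs9*, at 48.2% GC, was below the median GC content but had a ratio of 0.728. *Rgs8*, *Rgs10*, and *Rgs6*, between 50.1% and 50.7% GC, had ratios of 0.971, 1.02, and 1.09.

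**Figure D4:**
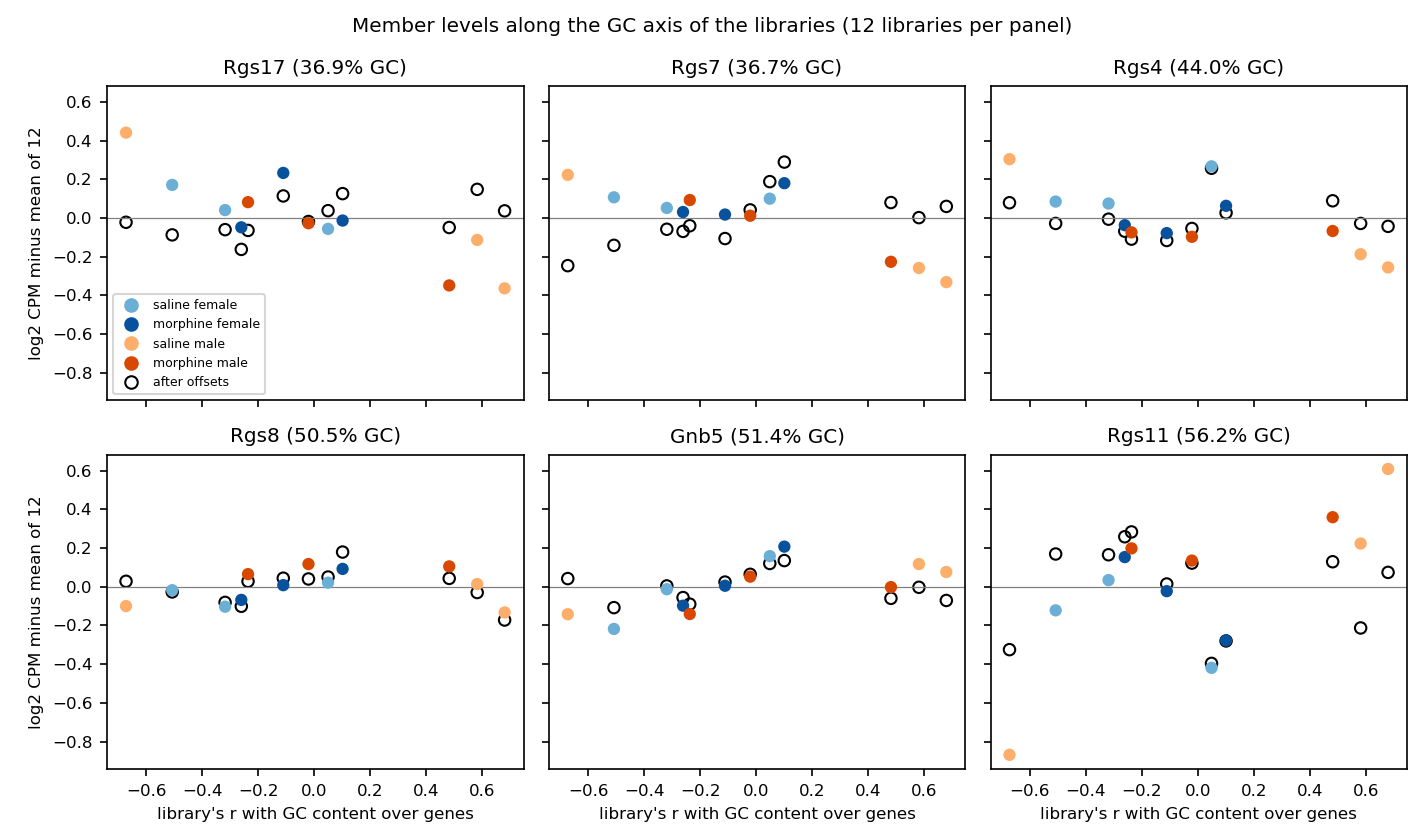
Deviation of 6 members from their mean (log2 CPM) in each of 12 libraries, against the correlation of that library's deviations with GC content over genes. Filled points are colored by group and open points are the same values after offsets for GC content and length. *Rgs17*, *Rgs7*, and *Rgs4* slope down, *Rgs11* slopes up from its low of 7.9 CPM in saline male 3 to 22.0 CPM in saline male 2, and the open points of *Rgs17* and *Gnb5* lie closer to 0.

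Offsets for GC content and length, fitted per library by loess over all genes, changed the spread of the members unequally. The SD within groups of *Rgs17* went from 0.25 to 0.10 on the log2 scale, that of *Rgs11* from 0.42 to 0.24, that of *Gnb5* from 0.15 to 0.09, and that of *Rgs4* from 0.17 to 0.11. For *Rgs2* it went from 0.25 to 0.20, for *Rgs10* from 0.15 to 0.14, and for *Rgs7*, the member with the least GC, from 0.18 to 0.16. The deviation of *Rgs7* in saline male 3 changed sign, from 0.223 to -0.246. For *Rgs9* the SD stayed at 0.36 and 0.35, and for *Rgs8* and *Rgs6* it became larger, from 0.07 to 0.09 and from 0.14 to 0.17. Over all tested genes the median SD went from 0.28 to 0.20. In this fit 0 of 10 members were called in the sex-combined and in the females-only dataset.

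Members were also compared with each other over the 12 libraries, in 45 pairs. After Benjamini-Hochberg adjustment 7 pairs had a permutation p under 0.05, with 3 positive and 4 negative. *Rgs2* and *Rgs4* had the highest Pearson's r before offsets, 0.86 (permutation p of 0.00029, adjusted 0.00435), and a Spearman's rho of 0.87 (permutation p of 0.00048, adjusted 0.00596). Their r was 0.66 without the 2 libraries farthest from the *Rgs2* median, 0.95 within saline mice and 0.90 within morphine-exposed mice, and 0.75 after the GC and length offsets. *Rgs7* and *Rgs17* had an r of 0.80 (permutation p of 0.00171, adjusted 0.0154; rho 0.70, permutation p of 0.0142, adjusted 0.0914; 0.75 without the farthest 2; 0.87 in saline and 0.68 in morphine-exposed mice), and after offsets 0.42. *Rgs4* and *Rgs7* had an r of 0.79 (permutation p of 0.00307, adjusted 0.0206; rho 0.87, permutation p of 0.00051, adjusted 0.00596; 0.82 without the farthest 2; 0.96 in saline and 0.54 in morphine-exposed mice), and after offsets 0.39. By rank, *Rgs2* and *Rgs7* were the closest pair, with a rho of 0.93 (permutation p of 4e-05, adjusted 0.0018), an r of 0.69 (permutation p of 0.00936, adjusted 0.0526), and 0.62 without the farthest 2. The 4 negative pairs all held *Rgs11*. Its r was -0.92 with *Rgs4* (permutation p of 2e-05, adjusted 0.0009; rho -0.80, permutation p of 0.00241, adjusted 0.0181; -0.82 without the farthest 2), -0.86 with *Rgs2* (permutation p of 0.00028, adjusted 0.00435; rho -0.82, permutation p of 0.00158, adjusted 0.0142; -0.70 without the farthest 2), -0.81 with *Rgs7* (permutation p of 0.00106, adjusted 0.0119; rho -0.87, permutation p of 0.00053, adjusted 0.00596; -0.78 without the farthest 2), and -0.78 with *Rgs17* (permutation p of 0.00321, adjusted 0.0206; rho -0.67, permutation p of 0.0199, adjusted 0.0993). After offsets these r were -0.68, -0.80, -0.31, and -0.66. Without the farthest 2 libraries the r of *Rgs11* with *Rgs17* was -0.41, so that pair rested on them. Of the dimer partners of *Gnb5*, *Rgs6* had an r with it of 0.49 (permutation p of 0.11, adjusted 0.292) before and 0.91 after offsets, *Rgs7* of -0.29 and 0.51, *Rgs9* of -0.19 and -0.36, and *Rgs11* of 0.11 and -0.76. Members that do not bind Gβ5 were also high after offsets, with *Rgs10* at 0.76 and *Rgs8* at 0.63 to *Gnb5*. Values after offsets were not tested.

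**Figure D5:**
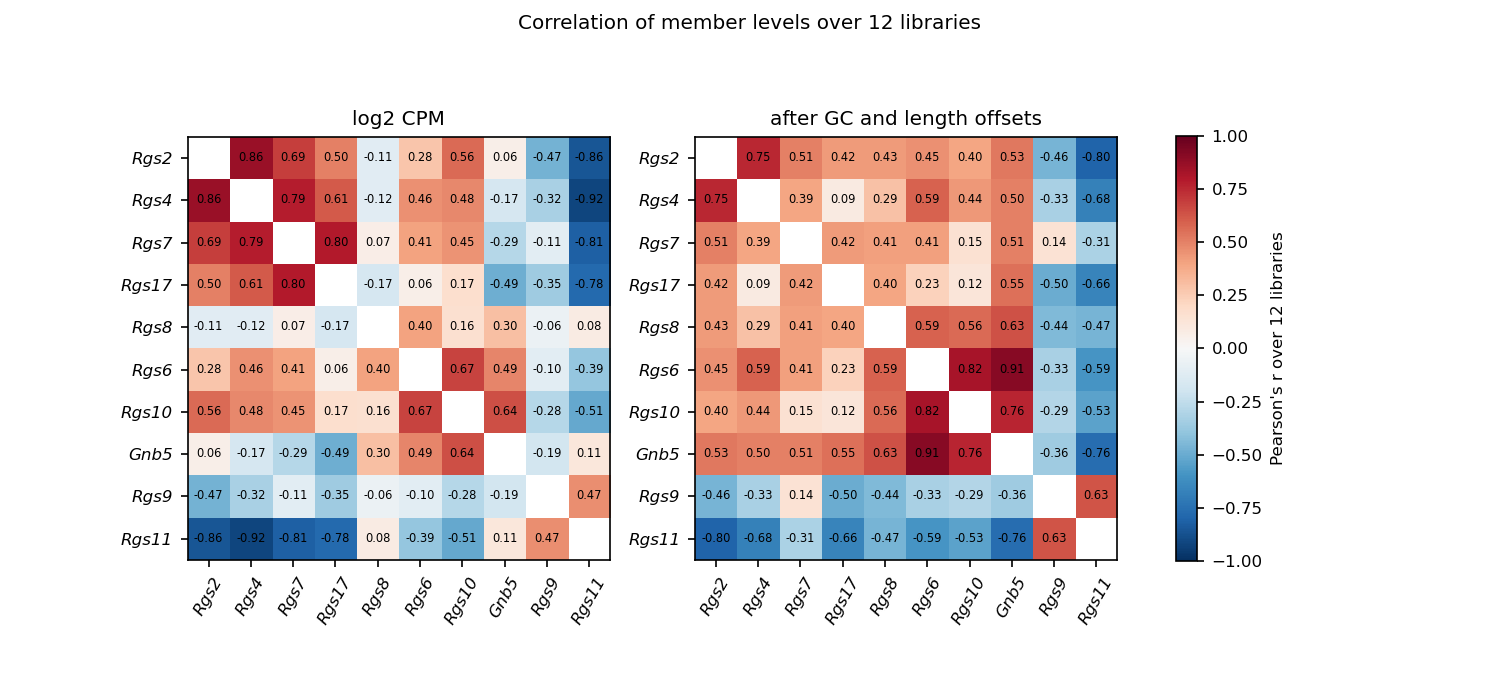
Pearson's r of each pair of members over 12 libraries on log2 CPM (left) and after offsets for GC content and length (right), with red for positive and blue for negative values. On the left *Rgs2*, *Rgs4*, *Rgs7*, and *Rgs17* form a positive block opposed to *Rgs11*. On the right *Rgs2* and *Rgs4* have an r of 0.75, *Rgs6* and *Gnb5* of 0.91, and *Rgs11* and *Gnb5* of -0.76.

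*Rgs2*, *Rgs8*, *Rgs4*, and *Rgs7* lie on chromosome 1 between 143999338 and 175492500. Because *Rgs2* and *Rgs4* moved together, the 250 bases before their RefSeq start sites (GRCm38.p6) are shown, from 5′ to 3′ on the strand of the gene. Capitals mark the TATA box TATAAA, the CCAAT box CCAAT, and TGACG, the core of the site bound by cAMP response element binding protein, each searched on both strands. The *Rgs2* stretch is chr1:144004150-144004399 (minus strand) and the *Rgs4* stretch chr1:169747643-169747892 (minus strand).
Rgs2: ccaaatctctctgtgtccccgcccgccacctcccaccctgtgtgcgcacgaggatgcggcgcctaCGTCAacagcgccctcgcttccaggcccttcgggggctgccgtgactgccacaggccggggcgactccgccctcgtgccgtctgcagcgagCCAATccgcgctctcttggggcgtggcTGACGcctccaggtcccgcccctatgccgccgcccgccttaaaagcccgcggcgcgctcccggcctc
Rgs4: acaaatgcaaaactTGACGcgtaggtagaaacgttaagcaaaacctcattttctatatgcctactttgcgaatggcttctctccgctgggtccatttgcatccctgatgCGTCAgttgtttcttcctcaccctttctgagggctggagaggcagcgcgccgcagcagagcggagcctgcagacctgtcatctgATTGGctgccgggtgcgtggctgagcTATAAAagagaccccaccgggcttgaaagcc
The stretches differ in composition, with 72.4% GC and 30 CG dinucleotides before *Rgs2* and 53.6% GC and 13 CG dinucleotides before *Rgs4*. *Rgs4* has TATAAA starting 31 bases before the start site, a motif that 12.4% of 32851 such stretches hold, and *Rgs2* has none. Both hold CCAAT, 94 bases before the start in *Rgs2* and 57 bases before it in *Rgs4* (33.8% of all stretches). Both hold TGACG at 2 places, 185 and 67 bases before the start in *Rgs2* and 236 and 141 bases before it in *Rgs4*, which 17.8% of all stretches hold at least once. GGGCGG, the core of the GC box, was also searched and is not in capitals: it is at 4 places in *Rgs2* and at none in *Rgs4* (32.7% of all stretches hold it). Neither holds the full palindrome TGACGTCA, which 1.5% of all stretches hold. These are matches of letters, and no binding was measured here.

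For each member, the 3 genes most like it in pattern were those with the highest Pearson r of log2 CPM over the 12 libraries among 15056 genes with a mean of at least 1 CPM. Genes of like base composition share the GC axis of the libraries, so r after the offsets is given beside each value. *Rgs17* was matched by *Zfp37* (0.99, 0.62 after offsets), *Miga1* (0.99, 0.96), and *Hdgfl3* (0.98, 0.85). *Rgs11* was matched by *Rps6kb2* (0.98, 0.86), *Phf21b* (0.98, 0.95), and *Ssh3* (0.98, 0.87), all GC-rich. *Gnb5* was most like *Brinp1* (0.97, 0.25), *Prpf31* (0.97, 0.82), and *Bex3* (0.96, 0.88). *Rgs7* was most like *Rufy3* (0.97, 0.87), *Rabgap1* (0.97, 0.57), and *Vopp1* (0.96, 0.76). For *Rgs10* these were *Rps25* (0.96, 0.96), *Rps27* (0.96, 0.90), both ribosomal protein genes, and *Rbx1* (0.96, -0.03). For *Rgs4* they were *Tspyl5* (0.95, 0.54), *Wdr7* (0.95, 0.81), and *Map7d2* (0.94, 0.49). *Rgs2* was matched by *Frg1* (0.93, 0.89), *Ik* (0.93, 0.88), and *Ghitm* (0.93, 0.83). The steadier *Rgs8* had *Siah3* (0.93, 0.67), *Rmc1* (0.86, 0.28), and *Eif4e2* (0.85, 0.85). *Rgs6* had *Ttc39c* (0.91, 0.91), *Mreg* (0.87, 0.85), and *Kat7* (0.87, 0.83), and *Rgs9* had *Brd9* (0.88, 0.81), *Sf1* (0.85, 0.14), and *Itgad* (0.85, 0.83). No member was among the 3 genes of another member.

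Other genes of the pathway were described from lists. Among the other R4 genes, 4 of 7 were tested in the sex-combined dataset and none was called. *Rgs5*, a marker of pericytes, was the highest of them per length (63.2 RPKM; Log2FC -0.09, SE 0.11). Of the other RZ and R12 genes, 4 of 4 were tested with none called in the treatment comparisons, and *Rgs19* was the highest (4.24 RPKM; Log2FC -0.06, SE 0.13). *Rgs14* passed the DE thresholds in the interaction (-1.58, SE 0.71; adjusted p = 0.985), at a level of at most 27 counts in a library, and did not under total-count scaling (-1.48, SE 0.72). Among 8 Gα subunits, 7 had a lower fitted level in morphine-exposed males, with a median Log2FC of -0.24 (-0.12 under total-count scaling) beside -0.06 over all genes, and 1 was called: *Gnas*, which encodes the stimulatory Gαs, at -0.33 (SE 0.14; adjusted p = 1.00). Under total-count scaling 5 of 8 were lower and *Gnas* was not called (-0.20). *Gnas* was not called either without saline male 3 and morphine male 6 (-0.24, SE 0.10), while *Gnai3*, *Gnaz*, *Gna11*, *Gnai2*, and *Gnaq* were, 2 of them higher and 3 lower, beside 41% of all genes. *Gnai1*, the highest of these Gα subunits per length (63.8 RPKM), had a sex-combined Log2FC of -0.11 (SE 0.11). Of the 4 other Gβ subunits 3 were tested and none was called, and *Gnb1* was the highest (157 RPKM; Log2FC 0.05, SE 0.07). With saline male 3 and morphine male 6 left out, *Rgs16*, *Rgs3*, *Rgs19*, *Rgs12*, *Rgs14*, and *Gnb2* of these lists were called and lower in morphine-exposed males, beside 41% of all genes. The 4 opioid receptors were tested and none was called in the treatment comparisons, also without saline male 3 and morphine male 6. *Oprl1*, the nociceptin receptor, was the highest per length at 24.5 RPKM (Log2FC 0.05, SE 0.07), while *Oprm1*, the receptor at which morphine acts, had 3.24 ± 0.986 CPM in saline and 3.50 ± 0.964 CPM in morphine-exposed mice (mean ± SD, n = 6).

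Markers of other cell types varied more than the members. The 6 choroid plexus markers summed to 10.1 to 477 CPM in saline females, 29.8 to 165 CPM in morphine-exposed females, 268 to 524 CPM in saline males, and 418 to 843 CPM in morphine-exposed males, with 4 of 6 called and higher in morphine-exposed males, and 6 of 6 without saline male 3 and morphine male 6. Over all genes 2.99% were called in males, and 41% without both libraries. The 7 oligodendrocyte markers all had lower fitted levels in morphine-exposed males (median Log2FC -0.41), and *Cldn11* (-0.49, SE 0.13) and *Mobp* (-0.42, SE 0.18) were DE genes, of which *Cldn11* alone was called under total-count scaling. With saline male 3 and morphine male 6 left out, 5 of 7 were called and lower in males, beside 41% of all genes called. *Cldn11* (-0.49) and *Mobp* (-0.61) were among the 5. In the sex-combined dataset *Cldn11* was called too (-0.29, SE 0.10), though not under total-count scaling (-0.24), as were *Cbln3* (0.77, SE 0.33), *Gabra6* (0.99, SE 0.44), and *Fat2* (0.39, SE 0.17). In that dataset without saline male 3 and morphine male 6, *Cldn11* (-0.28) and *Cbln3* (0.84) stayed called. *Gabra6* (1.05) and *Fat2* (0.30) did not. Of the 7 astrocyte markers *Gjb6* was called in males (-0.36, SE 0.15) but not under total-count scaling (-0.24), with -0.41 (SE 0.11) without saline male 3 and morphine male 6, and of the smooth muscle markers *Acta2* (-0.61, SE 0.19) and *Myh11* (-0.54, SE 0.17) were called in females. Of the hindbrain markers *Hoxb2* (-0.47, SE 0.22) and *Hoxb4* (-0.33, SE 0.14) were called in the sex-combined dataset but not under total-count scaling (-0.42 and -0.28). Without saline male 3 and morphine male 6, *Hoxb4* (-0.37) was called there and *Hoxb2* (-0.48) was not. Of the granule cell markers *Zic2* (-0.27, SE 0.12) was called in females. No neuronal, microglial, or immediate early gene marker was called in the treatment comparisons, whereas without saline male 3 and morphine male 6 in males 3 of 8, 2 of 7, and 7 of 9 were, beside 41% of all genes. The part of these cell types in the members' values was not tested.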

How the data were processed

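The deposited table holds counts per gene, for 55418 gene symbols in 12 libraries of poly-A RNA (100 bp single-end reads, 1 lane). The authors made them with scruff (preprocessing), Trimmomatic (trimming), STAR (alignment to mm10), and featureCounts (exons of an Ensembl annotation); versions and the strand setting are not given in the sources used here. The paper calls the deposited values normalized read counts; they are whole numbers with unequal totals, and were used as raw counts. Groups came from the labels, which give brainstem, whereas the extraction text names spinal cord. The dam is in no label and was not used.

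Symbols were matched to GENCODE M21 (GRCm38) for length, position, and GC content; 115 symbols stood for more than 1 gene. Tests used glmQLFit and glmQLFTest of edgeR 4.0.16 (R 4.3.3) after TMM normalization and filterByExpr, sex being a term of the sex-combined model, and p values were adjusted by Benjamini and Hochberg over all tested genes. The p values measure the spread between 3 or 6 mice per group. Levels are CPM over TMM-scaled library sizes of 12 libraries, with a prior count of 2 for logs. Correlations used 100000 permutations (scipy). The fits were tested on simulated data. Alternatives were exactTest, DESeq2 1.42.0, its size factors, total-count scaling, other filters, loess offsets (span 0.5), no covariate, 1 surrogate variable (sva 3.50.0), replicate number as a block, the contrast from all 12 mice, and leaving out each mouse. Leaving out saline male 3 and morphine male 6 together was added after the data were seen. The rule named all 10 members, and of each list the DE genes and the gene with the highest RPKM; *Oprm1*, *Pcp2*, *Slc6a5*, and *Xist* were chosen for their role. Members and lists were chosen with earlier results of these data known. Promoter sequences are from RefSeq (GRCm38.p6), which matched 9 of 10 members.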

Additional observations from a re-analysis of the deposited data

Results flagged for a closer look

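Among 20 sets of values (10 members in 6 saline and in 6 morphine-exposed mice), 1 held a mouse far from the others by Dixon's criterion, which chance alone flags in about 1 of 20 sets. It was *Rgs4* in morphine female 3, at 224.5 CPM, while the other morphine-exposed mice lay between 200.9 and 209.5 CPM, so that the gap took 0.637 of the whole range. The same mouse had the highest *Rgs2* (69.8 CPM), *Rgs10* (52.2 CPM), and *Gnb5* (81.0 CPM) of the morphine-exposed mice. Without it the female Log2FC of *Rgs4* was -0.21 (SE 0.09). With all 12 mice no interaction of treatment and sex passed the threshold for a member.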

How the results depend on the processing

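Of 900 Log2FC values of members under the alternatives, 797 kept their direction and their side of the thresholds, 96 changed sign, and 7 became called. The number of members called was 0 in the sex-combined and females-only comparisons under every alternative run. It was 1 in the males-only comparison with loess offsets, and 1 in the males-only, interaction, and male-female comparisons without saline male 3 and morphine male 6 together; leaving out single mice it ranged from 0 to 1 in these 3 comparisons, with 1 only without saline male 3. The cause of these changes was not tested. The males-only count of DE genes over all genes was 543, and 1148 with loess offsets, 5341 without saline male 3, and 7548 without both libraries. Replicate numbers shared by saline and morphine-exposed mice were not treated as pairs. Deviations of same-numbered mice correlated at -0.36 to 0.18 over 18608 genes, and no mouse was closest to its own number. Same-numbered mice were of opposite sex and the dam is in no label, so these values cannot tell whether they shared a litter. With the replicate block, 0 members were called and 204 genes were DE genes, beside 221 without it. Levels of members in saline mice moved by less than 1 SD under total-count or DESeq2 scaling.

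Sign changes were as follows. Total-count scaling gave a Log2FC of 0.025 for *Rgs10* (sex-combined), 0.006 for *Rgs17* (females-only), 0.042 for *Rgs4*, 0.040 for *Rgs10*, and 0.049 for *Gnb5* (males-only), and 0.029 for *Rgs10* and 0.099 for *Rgs11* (interaction). Leaving out saline male 3 and morphine male 6 together gave a Log2FC of -0.055 for *Rgs11*, 0.090 for *Rgs17*, and -0.039 for *Gnb5* (sex-combined), 0.008 for *Rgs2*, 0.118 for *Rgs4*, -0.285 for *Rgs11*, and 0.244 for *Rgs17* (males-only), 0.072 for *Rgs2* and 0.218 for *Rgs17* (interaction), and 0.064 for *Rgs9* and 0.036 for *Gnb5* (male-female). DESeq2's Wald test gave a Log2FC of -0.004 for *Gnb5* (sex-combined) and 0.000 for *Rgs17* (females-only). The size factors of DESeq2 gave a Log2FC of -0.003 for *Gnb5* (sex-combined) and 0.000 for *Rgs17* (females-only). No filter gave a Log2FC of -0.006 for *Gnb5* (sex-combined). The loess offsets gave a Log2FC of 0.046 for *Rgs7*, -0.039 for *Rgs10*, and 0.068 for *Rgs17* (females-only), 0.015 for *Rgs10* and 0.302 for *Rgs11* (interaction), and -0.023 for *Rgs8* and 0.008 for *Rgs17* (male-female). A minimum of 10 counts in every library gave a Log2FC of 0.005 for *Rgs17* (females-only) and 0.017 for *Rgs11* (interaction). The fit of all 12 mice gave a Log2FC of 0.008 for *Rgs17* (females-only). Leaving out each mouse in turn, the Log2FC that changed sign ranged, in the sex-combined comparison, from -0.002 to 0.112 for *Rgs6*, -0.021 to 0.093 for *Rgs7*, -0.004 to 0.213 for *Rgs9*, -0.099 to 0.007 for *Rgs10*, -0.040 to 0.268 for *Rgs11*, -0.125 to 0.052 for *Rgs17*, and -0.060 to 0.040 for *Gnb5*. It ranged, in the females-only comparison, from -0.249 to 0.029 for *Rgs2*, -0.134 to 0.069 for *Rgs6*, -0.070 to 0.015 for *Rgs7*, -0.005 to 0.076 for *Rgs8*, -0.274 to 0.118 for *Rgs9*, -0.113 to 0.080 for *Rgs10*, -0.005 to 0.223 for *Rgs11*, -0.093 to 0.072 for *Rgs17*, and -0.036 to 0.145 for *Gnb5*. It ranged, in the males-only comparison, from -0.327 to 0.033 for *Rgs2*, -0.189 to 0.147 for *Rgs4*, -0.069 to 0.262 for *Rgs7*, -0.190 to 0.431 for *Rgs11*, -0.309 to 0.147 for *Rgs17*, and -0.119 to 0.031 for *Gnb5*. It ranged, in the interaction comparison, from -0.259 to 0.085 for *Rgs2*, -0.031 to 0.242 for *Rgs7*, -0.173 to 0.046 for *Rgs10*, -0.344 to 0.334 for *Rgs11*, and -0.287 to 0.112 for *Rgs17*. It ranged, in the male-female comparison, from -0.002 to 0.060 for *Rgs8*, -0.184 to 0.045 for *Rgs9*, and -0.045 to 0.056 for *Gnb5*. Depth was not limiting for most members, with 256 counts the lowest for any of them (*Rgs11*).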
